A study of Rattus norvegicus with 29 samples.

Results

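RNA sequencing measured the response to acetaminophen at 24 h in rat renal proximal tubule epithelial cells in primary culture, with 6 libraries, 3 titled APAP T2 and 3 titled Control T2, out of 29 libraries in the series. Both groups are cultures of the same labelled cell type, taken at 24 h. The first was treated with acetaminophen and the second was the control of that time. The 3 acetaminophen and 2 control libraries of 6 h were used to look up the same transcripts earlier. The 24 h libraries of gentamicin, TCDD and trichloroethylene gave levels for comparison. All 29 libraries entered the fit that estimated the spread. The labels state no dose, vehicle, strain or animal. Nor do they say whether replicates are separate cultures, so the spread between replicates may be technical. The p-values rest on that spread pooled over all groups of the series.

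The proximal tubule is the first segment of the nephron and reclaims most of the filtered glucose, amino acids, phosphate and bicarbonate; it also secretes drugs into the urine and makes glucose. Acetaminophen (APAP) is an analgesic that is largely conjugated to glucuronide or sulfate, and part of it is oxidised by cytochrome P450 enzymes to a reactive quinone imine that glutathione removes. At high exposure it is toxic to the liver and to the proximal tubule. The files give transcript identifiers without gene names, and the reference table used here paired 0 of them with a gene. The response is therefore described by its size, direction and abundance classes and by 4 transcripts given by identifier. For the same reason, the labelled cell type was not checked against its marker genes.

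Library totals ran from 9316996 to 9934722 estimated counts with acetaminophen and from 8513263 to 9515599 in controls. The acetaminophen libraries held 17801 to 18017 transcripts with a count, against 17308 to 17412 in controls. The groups did not overlap, but 3 libraries against 3 cannot give a two-sided exact permutation p under 0.1, which was the value here. The TMM scaling factor, which corrects a library total for its composition, was 1.15 to 1.18 with acetaminophen and 1.01 to 1.02 in controls. Fragment length was read from the files as transcript length minus effective length. It was 253.9, 232.7 and 274.7 bases in acetaminophen replicates 1, 2 and 3, and 288.85, 276.8 and 269.9 bases in control replicates 1, 2 and 3.

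Acetaminophen changed the level of most transcripts tested. Of 15990, 9500 (59.4%) passed edgeR's quasi-likelihood test at a Benjamini-Hochberg adjusted p under 0.05; 4838 rose (30.3%) and 4662 fell (29.2%). Changes of every size were called. Rises had a median log2 change of 0.90 and falls one of -0.83, with median SEs of 0.147 and 0.131, and 27.8% of rises and 30.4% of falls were under 1.5-fold, while 44.7% and 40% were over 2-fold. On the log2 scale, the rises had quartiles of 0.55 and 1.55 and the falls of -0.53 and -1.39. More rises than falls were large, and over 4-fold the excess lay mainly at low levels, as given by abundance class below. Over 2-fold there were 2161 rises and 1865 falls, and over 4-fold 780 and 563. Over 8-fold there were 341 and 220, and over 16-fold 144 and 62. In these counts, a group without a count in any library was set at 3 counts in each, so that 88 rises and 31 falls enter as lower bounds.

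The change was large beside the spread between replicates. Between an acetaminophen and a control library, the median absolute difference over 14239 transcripts of at least 1 TPM (the authors' level per transcript length and library total) was 0.55 to 0.66 on the log2 scale. Within groups it was 0.15 to 0.26 among acetaminophen libraries and 0.14 to 0.22 among controls. In TMM-scaled CPM, all 3 acetaminophen libraries lay above all 3 controls for 4514 of the rises (93.3%), as they did for 31.7% of all tested transcripts. They lay below all 3 for 4427 of the falls (95%), and for 31.1% of all tested transcripts. In TPM, without TMM scaling, the groups did not overlap for 97.6% of the rises but for only 76.4% of the falls. The near balance of directions belongs to the TMM scale. With total counts as the scale, the median of all transcripts shifted by 0.21 and rises made up 64.5% of the calls, against 50.9%; on log2(TPM + 1) the shift was 0.12 and the share 61.8%.

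**Figure D1:**
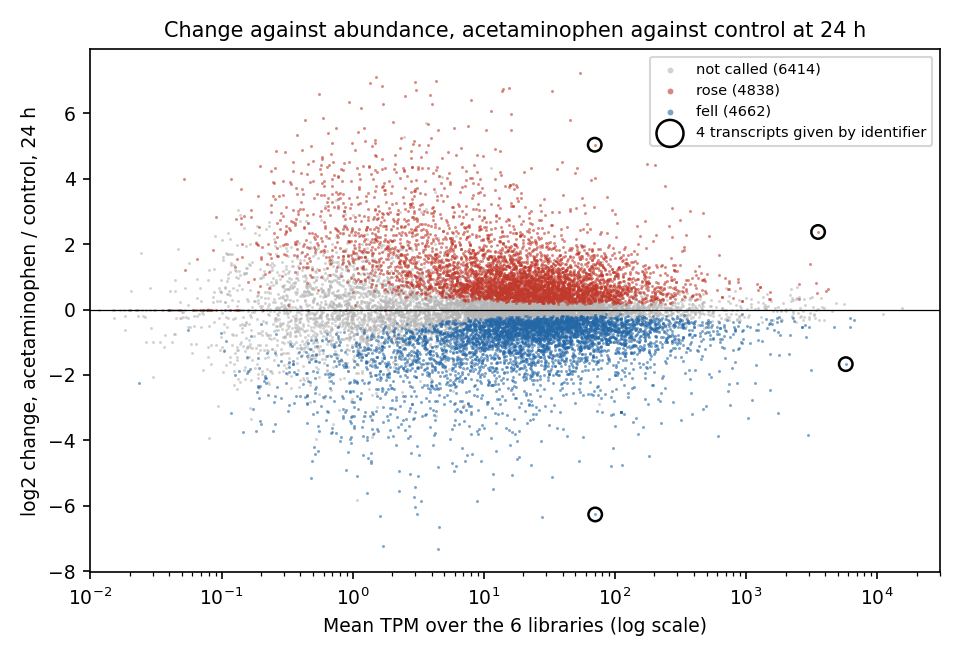
Each point is a tested transcript with a level above 0: the x axis gives mean TPM over the 6 libraries (log scale) and the y axis the log2 change of acetaminophen over control at 24 h, with lower bounds where a group had no count. Large changes crowd at low levels, while the 4 circled transcripts, given by identifier in the text, lie at mean levels from 70.1 to 5760 TPM.

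Direction and size both varied with abundance. Transcripts were placed in 5 classes by mean TPM over the 6 libraries. Below 1 TPM, 293 of 1751 rose and 190 fell, and the median SE was 0.79. In this class 27.6% were called, with a median log2 change of 2.36 for rises and -2.01 for falls. Between 1 and 10 TPM, 1325 of 4501 rose and 1113 fell, with medians of 1.37 and -1.25. Between 10 and 100 TPM, where the median SE was 0.12, 2827 of 8112 rose and 2676 fell, with medians of 0.73 and -0.70. Low levels thus carried the larger called changes and the larger errors. From the lowest of these classes upward, changes over 4-fold numbered 183 rises and 96 falls, 399 and 249, and 178 and 165. Between 100 and 1000 TPM they numbered 19 rises and 47 falls, and at 1000 TPM or more 1 and 6.

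Among the abundant transcripts, falls outnumbered rises on the TMM scale and, less so, on log2(TPM + 1), but not with total counts as the scale. Between 100 and 1000 TPM, 378 of 1487 rose (25.4%) and 638 fell (42.9%), and changes over 2-fold numbered 110 upward and 198 downward. At 1000 TPM or more, 15 of 139 rose and 45 fell, with 2 and 13 over 2-fold. Rises were thus 60.7%, 54.3%, 51.4%, 37.2% and 25% of the calls from the lowest class to the highest. With total counts as the scale the shares were 70.2%, 64.6%, 66.2%, 53.2% and 52.6%. Falls thus no longer outnumbered rises in the upper classes, while rises were still a smaller share of the calls there than in the other classes. On log2(TPM + 1), without TMM factors, 494 rose and 545 fell between 100 and 1000 TPM. At 1000 TPM or more, 30 rose and 39 fell on that scale. Median-of-ratios factors gave 378 rises and 632 falls in the lower of these classes, and 15 and 44 in the upper.

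The split in the top class also moved with single libraries. The number of rises there was 7 without acetaminophen replicate 2, control replicate 1 or control replicate 2, 23 without acetaminophen replicate 3 and 22 without control replicate 3. The falls there ran from 37 to 47 over the libraries left out. Fragment length differed between these libraries as given above. With it as a covariate, 6 rose and 65 fell in that class. In the main fit, without this covariate, 3 rose and 20 fell among the transcripts of that class with at least 1000 bases.

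**Figure D2:**
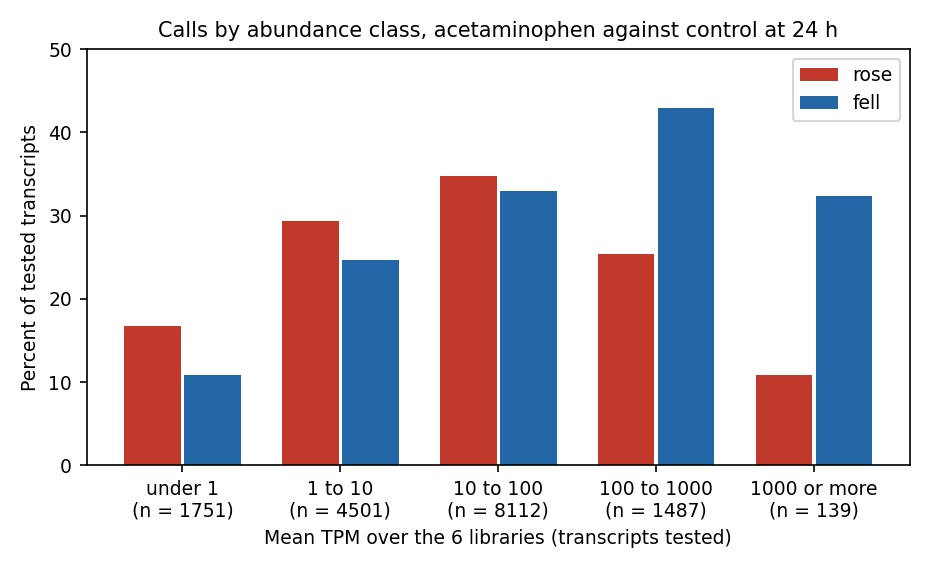
Bars give the percent of tested transcripts that rose (red) or fell (blue) with acetaminophen against control at 24 h, by class of mean TPM, on the TMM scale. Rises exceed falls in the lower classes, and falls exceed rises from 100 TPM upward, at 42.9% against 25.4% between 100 and 1000 TPM, but with total counts as the scale rises were 53.2% of the calls in that class.

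Called transcripts held most of the TPM in every library. Transcripts that rose held 29.1%, 29.3% and 28.5% of the TPM in the acetaminophen libraries, against 14.4%, 15.1% and 15.2% in the controls. Those that fell held 26.6%, 24.7% and 29.1% with acetaminophen, against 45.5%, 44.6% and 42.1% in controls. These sets were chosen by the same comparison, so the shares describe its weight and test nothing. Falls over 4-fold stood at 0.76%, 0.70% and 0.84% with acetaminophen, against 5.15%, 4.84% and 4.58% in controls, and rises over 4-fold at 2.56%, 2.64% and 2.37%, against 0.35%, 0.38% and 0.37%.

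Neither direction rested on a few transcripts. Summed over called transcripts, mean TPM with acetaminophen minus that in controls was 140450 for the rises and -172461 for the falls. The largest single gain was 3.5% of the summed gain and the largest single loss 3.41% of the summed loss. The smallest number of transcripts that made up 50% of the change was 314 for the gain and 142 for the loss. Of the 100 most abundant transcripts of each group, 80 were shared between the groups at 24 h, against 91 at 6 h; of the top 10, 6 were shared at 24 h and 9 at 6 h.

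**Figure D3:**
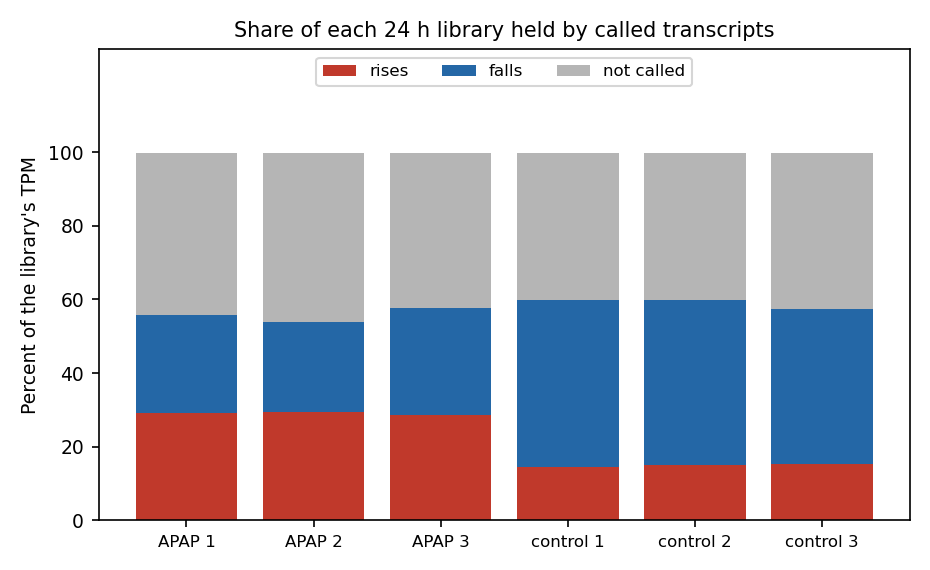
Stacked bars give, for each 24 h library, the percent of its TPM held by transcripts that rose (red), fell (blue) or were not called (grey); APAP is acetaminophen. The red part is 28.5% to 29.3% in the acetaminophen libraries and 14.4% to 15.2% in the controls.

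The 4 transcripts given by identifier are the largest rise, the largest fall, the largest gain in TPM and the largest loss in TPM. They were taken from calls whose counts reached 10 in each of the 6 libraries, whose mean TPM reached 10 and whose groups did not overlap. Their 24 h changes chose them, so the p-values at 24 h only describe that choice.

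ENSRNOT00000004408, 2519 bases long, had the largest rise. It stood at 139, 124 and 146 TPM with acetaminophen, against 3.66, 4.47 and 2.98 TPM in controls. The log2 change was 5.04 ± 0.30 (SE, edgeR adjusted p = 1.7e-12), a 32.8-fold rise with no overlap. At 6 h the level was already 131, 126 and 133 TPM with acetaminophen, against 3.24 and 3.48 TPM in controls, a log2 change of 5.32 ± 0.35 (edgeR adjusted p = 2.8e-11). The difference between the times, -0.29 ± 0.45, did not pass (edgeR adjusted p = 0.70). All its counts were whole, within a tolerance of 0.001 counts. At 24 h it averaged 291 ± 40.6 TPM with gentamicin, 22.1 ± 5.88 with TCDD and 21.0 ± 9.71 with trichloroethylene (SD, n = 3 each), against 3.70 ± 0.75 in controls.

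ENSRNOT00000005851, of 1956 bases, had the largest fall. Its level was 3.03, 1.40 and 1.62 TPM with acetaminophen, against 158, 130.5 and 129.5 TPM in controls. The acetaminophen values rest on 42.6, 20.5 and 20 estimated counts, against 1810, 1641 and 1762 in controls. The log2 change was -6.26 ± 0.16 (SE, edgeR adjusted p = 8.5e-20), a level 76.7-fold lower. At 6 h it stood at 44.8, 45.0 and 40.4 TPM with acetaminophen, against 93.9 and 88.1 TPM in controls, and the log2 change was -1.01 ± 0.12 (edgeR adjusted p = 1.9e-07). The change thus deepened by -5.25 ± 0.21 on the log2 scale (edgeR adjusted p = 1.1e-14). Some counts of this transcript were not whole, so it shares reads with other transcripts. Its 24 h means were 73.1 ± 6.22 TPM with gentamicin, 48.3 ± 5.12 with TCDD and 107 ± 7.20 with trichloroethylene, against 139 ± 16.3 in controls (SD, n = 3 each).

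ENSRNOT00000028315, a short transcript of 703 bases, gained the most TPM. Levels were 6161, 6180 and 5658 TPM with acetaminophen, against 1072, 1110 and 1077 TPM in controls. It ranked 4 by mean level in acetaminophen cultures and 145 in controls. The log2 change was 2.37 ± 0.11 (SE, edgeR adjusted p = 1.9e-15), a 5.17-fold rise. At 6 h it was at 3074, 3108 and 3036 TPM with acetaminophen, against 1411 and 1435 TPM in controls (log2 change 1.19 ± 0.12, edgeR adjusted p = 6.3e-09). The change grew by 1.18 ± 0.15 between the times (edgeR adjusted p = 2.6e-06). Some of its counts were not whole. At 24 h the mean was 10194 ± 707 TPM with gentamicin, 2495 ± 123 with TCDD and 5232 ± 684 with trichloroethylene, against 1087 ± 20.7 in controls (SD, n = 3 each).

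ENSRNOT00000041241, of 348 bases, lost the most TPM and varied most between replicates. It stood at 2562, 1593 and 4304 TPM with acetaminophen, against 13320, 8358 and 4425 TPM in controls, so that the groups nearly met. Its rank by mean level was 37 with acetaminophen and 3 in controls. The log2 change was -1.67 ± 0.32 (SE, edgeR adjusted p = 1.1e-04). In both 24 h groups the order of its level was the order of the fragment lengths given above. With fragment length as a covariate the change was -0.86 (edgeR adjusted p = 0.0055). With effective length as an offset it was -1.80 (edgeR adjusted p = 2.3e-04). The part of fragment length in the change was not tested. Its levels did not follow fragment length in acetaminophen replicates 1, 2 and 3 of 6 h, at 246.55, 251.6 and 248.45 bases. They did in the 2 controls of 6 h, at 257.1 and 263.2 bases. At 6 h it was at 1937, 1638 and 2252 TPM with acetaminophen, against 2806 and 2955 TPM in controls; the log2 change of -0.40 ± 0.35 did not pass (edgeR adjusted p = 0.36), nor did the difference between the times (-1.26 ± 0.47, edgeR adjusted p = 0.054). The means of the other compounds at 24 h were 555 ± 43.3 TPM with gentamicin, 211 ± 23.8 with TCDD and 2486 ± 228 with trichloroethylene, against 8701 ± 4457 in controls (SD, n = 3 each).

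**Figure D4:**
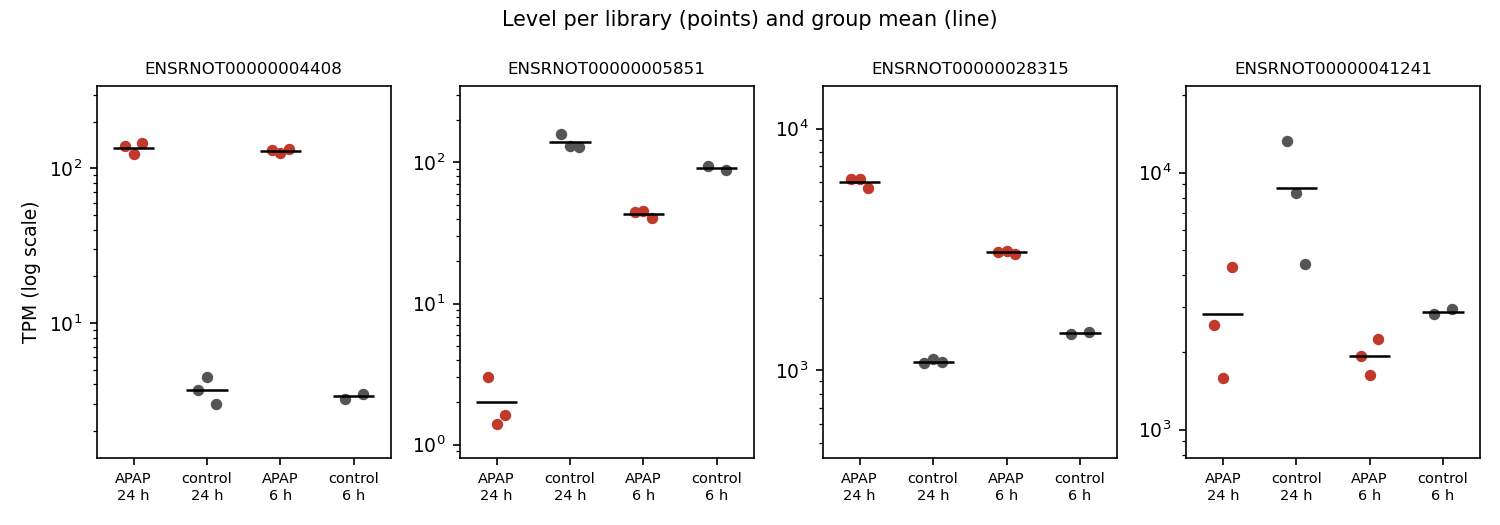
Points give the TPM of each library (log scale) and lines the group mean for the 4 transcripts, in acetaminophen (APAP, red) and control (grey) cultures of 24 h and of 6 h. ENSRNOT00000004408 is as high at 6 h as at 24 h, while ENSRNOT00000005851 is at 1.40 to 3.03 TPM in acetaminophen cultures of 24 h and at 40.4 to 45.0 TPM in those of 6 h.

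The most changed transcripts were then described as sets, the 50 largest rises and the 50 largest falls under the conditions just given. The rises ran from 2.99 to 5.04 on the log2 scale with a median of 3.42, and the next transcript outside the set had 2.96. The falls ran from -3.13 to -6.26 with a median of -3.47, and the next had -3.13. Among the falls, 5 identifiers had the same length and the same values in all 29 libraries, so the 50 falls hold 46 distinct measurements; the 50 rises hold no such copies. The median level of the rises was 40.1 TPM in acetaminophen cultures, against 3.05 TPM in controls. That of the falls was 7.30 TPM with acetaminophen, against 104 TPM in controls. Mean levels over the 6 libraries reached 371 TPM among the rises and 2976 TPM among the falls. Counts were whole in all 6 libraries for 41 of the rises and 31 of the falls, and for 62.5% of all tested transcripts.

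The 6 h libraries, which share no sample with the 24 h comparison, gave the 2 sets unlike medians. Of the 50 largest rises at 24 h, 48 had also risen at 6 h and none had fallen. Of the 3116 rises the set was taken from, 63.4% had risen at 6 h, as had 24.2% of all tested transcripts. The median log2 change of the 50 was 3.42 at 24 h and 2.95 at 6 h. Of the 50 largest falls, 47 had also fallen at 6 h. Of the 2445 falls the set was taken from, 69.8% had fallen at 6 h, as had 24.5% of all transcripts. The median of the 50 was -3.47 at 24 h but -1.04 at 6 h. A difference in effect between the times passed for 22 of the rises, 20 of them upward, and for 46 of the falls, all downward. It passed for 1129 of the 3116 rises and 1104 of the 2445 falls the sets were taken from, and for 25.9% of all transcripts. With the 5 copies counted once, 43 of 46 falls had fallen at 6 h, the difference passed for 42, and the medians were -3.54 at 24 h and -1.13 at 6 h. The sets were chosen at 24 h, which favours a larger change there in both directions. With total counts as the scale the medians were 3.63 at 24 h and 2.94 at 6 h for the rises, and -3.26 and -1.05 for the falls.

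**Figure D5:**
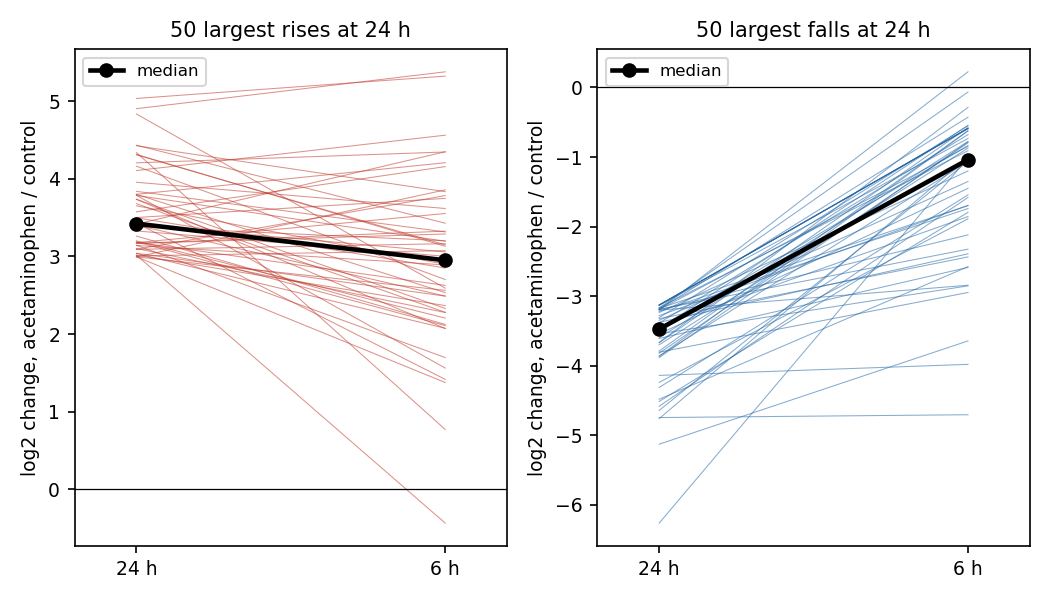
Lines join the log2 change of acetaminophen over control at 24 h (left) and 6 h (right) for each of the 50 largest rises (red) and the 50 largest falls (blue) chosen at 24 h; black marks the median. The median of the rises is 3.42 at 24 h and 2.95 at 6 h, and that of the falls -3.47 at 24 h and -1.04 at 6 h.

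The reverse lookup used sets chosen at 6 h under the same conditions. The 50 largest rises at 6 h had a median of 3.17 at 24 h and 3.29 at 6 h, and 49 of them rose at 24 h, where 30.3% of all tested transcripts rose. The 50 largest falls at 6 h had a median of -1.86 at 24 h and -2.43 at 6 h, and all 50 fell at 24 h, as 29.2% of all transcripts did. The difference between the times passed for 16 of these rises, 12 of them downward, and for 35 of these falls, 28 of them upward, beside 25.9% of all transcripts. The 24 h and 6 h sets of 50 had 24 rises in common and 8 falls.

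The same lookup over all calls gave lower shares for the smallest changes than for those over 2-fold, with no steady order among the larger ones. Among rises under 1.5-fold at 24 h, 45.4% had risen at 6 h and 7.5% had fallen. The share that had risen was 59.2% from 1.5-fold to 2-fold, 68.8% from 2-fold to 4-fold and 66.3% from 4-fold to 8-fold. Of the 341 rises over 8-fold, 70.4% had risen at 6 h and none had fallen; their median was 3.85 at 24 h and 2.49 at 6 h. Falls under 1.5-fold had fallen at 6 h in 47.9% of cases and risen in 8.04%. The share that had fallen was 58.7% from 1.5-fold to 2-fold, 69.9% from 2-fold to 4-fold and 73.2% from 4-fold to 8-fold. Of the 220 falls over 8-fold, 65.9% had fallen at 6 h and 1 had risen, with a median of -3.60 at 24 h and -1.40 at 6 h. The difference between the times passed for 20.2% of the rises over 8-fold and 56.4% of the falls over 8-fold.

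On the TMM scale, falls over 2-fold outnumbered rises between 100 and 1000 TPM at 24 h and not at 6 h. With classes set by mean TPM at each time, 110 rises and 198 falls between 100 and 1000 TPM exceeded 2-fold at 24 h, against 73 rises and 35 falls at 6 h. Among calls of any size in that class, falls outnumbered rises at both times, with 297 rises and 334 falls at 6 h and 378 and 638 at 24 h. In that class, over the 11 libraries of both times, the difference in effect passed for 512 transcripts, 362 of them lower at 24 h and 150 higher. At 1000 TPM or more it passed for 38, of which 36 were lower at 24 h. With total counts as the scale, the counts were 247 lower and 329 higher between 100 and 1000 TPM, which reverses the balance, and 23 lower and 3 higher at 1000 TPM or more.

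Few transcripts were switched on or off. At 24 h, 33 transcripts had no count in any control and at least 10 counts in every acetaminophen library, and 9 showed the opposite. The median level of those that appeared was 1.75 TPM and the highest 34.0 TPM. Set against 3 counts per control library, their rise was at least 2.65 on the log2 scale at the median and at least 5.61 at the highest. At 6 h, 22 appeared and 5 disappeared by the same measure against 2 controls. Of the 33 that appeared at 24 h, 7 also had at least 10 counts in each acetaminophen library of 6 h, and 20 had no count in either 6 h control.

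Levels with the other compounds at 24 h are given beside these sets, without a test, since the sets were chosen with acetaminophen. The 50 largest rises had a median of 40.1 TPM in acetaminophen cultures, 14.9 TPM in gentamicin, 6.08 TPM in TCDD and 7.55 TPM in trichloroethylene cultures, against 3.05 TPM in controls. The mean level was highest with acetaminophen among the 5 groups in 37 of the 50 (74%). The same held for 73% of the 3116 rises the set was taken from and for 33.8% of all tested transcripts. The 50 largest falls had a median of 7.30 TPM in acetaminophen cultures, 38.1 TPM in gentamicin, 21.6 TPM in TCDD and 68.6 TPM in trichloroethylene cultures, against 104 TPM in controls. Acetaminophen gave the lowest mean of the 5 groups in 39 of these (78%), in 40.6% of the 2445 falls the set was taken from and in 13.3% of all tested transcripts. These places use TPM without TMM scaling, while the calls were made on the TMM scale. TMM factors at 24 h were 1.15 to 1.18 with acetaminophen, 0.85 to 0.87 with gentamicin, 0.89 to 0.99 with TCDD and 1.08 to 1.09 with trichloroethylene. How far the scale moves the highest and lowest shares was not tested.

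The 50 most abundant transcripts are given as a further set. By mean TPM over the 6 libraries they ranged from 2526 to 15336 TPM and had a median length of 518 bases, against 2019 bases over all tested transcripts. Of these, 8 rose and 12 fell, with 2 and 3 over 2-fold, and their median log2 change was -0.06. Over all tested transcripts 30.3% rose and 29.2% fell, with a median of 0. At 6 h, 6 of the 50 rose and 1 fell, beside 24.2% and 24.5% of all transcripts.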

How the data were processed

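Reads were pseudoaligned to transcripts with kallisto 0.43, per the submitters' processing notes. The deposited files give, per the file headers, the authors' estimated counts and TPM values for 28420 transcripts, with length and effective length in bases. The transcript set, strand setting and trimming were not given in the sources used here. kallisto divides reads shared by near-identical transcripts, so a change can be a shift between them.

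Estimated counts were rounded. filterByExpr (minimum count 10) kept 15990 transcripts and 99.95% of counts. edgeR 4.0.16 in R 4.3.3 fitted 1 quasi-likelihood model with robust dispersion and TMM factors to all 29 libraries (10 groups, 19 residual degrees of freedom); steps were tested on simulated counts. The SE is the log2 change divided by the square root of F. Groups without a count were set at 3 counts per library. The members, rules, classes and alternatives were chosen with earlier results of these data known. Without gene names the planned gene lists were not used, and 4 identifiers were named by rule: the largest rise and fall by log2 change and the largest gain and loss in TPM among calls with a count of 10 or more in all 6 libraries, mean TPM of at least 10 and groups not overlapping in TPM.

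Alternatives were DESeq2 1.42.0, median-of-ratios factors, total counts, other filters, a replicate block, no robust dispersion, only the compared groups, log2(TPM + 1) and log2(TPM + 0.1) with limma 3.58.1, effective length as an offset, fragment length as a covariate (measured over transcripts of at least 1000 bases), and leaving out each library. No replicates were duplicates: chi-square per degree of freedom was 4.69 to 23.4 for pairs of 24 h replicates. No batch or date is labelled.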

Additional observations from a re-analysis of the deposited data

Results flagged for a closer look

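The effect of acetaminophen differed between 24 h and 6 h in 4139 transcripts, which is 25.9% of those tested (edgeR interaction test, adjusted p under 0.05). Of the 4 transcripts given by identifier, 2 were among them. For ENSRNOT00000005851, the change at 24 h minus that at 6 h was -5.25 on the log2 scale. For ENSRNOT00000028315, the same difference was 1.18. Groups of 3 libraries were not screened for single outlying samples.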

How the results depend on the processing

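Of 302 values recomputed under an alternative, over 16 results, 298 kept their direction and their side of the threshold or stayed within 1.5 times the reported count. The number of transcripts called at 24 h ran from 8055 with a filter at 10 CPM to 9643 with total counts, and from 8776 to 9188 when 1 library was left out. Fitted with only the compared groups, 8883 were called at 24 h, against 9500 with all 29 libraries. At 6 h that fit called 9119, against 7799 with all 29 libraries. Fitted this way at 24 h, the edgeR adjusted p was 5.8e-07 for ENSRNOT00000004408 and 1.6e-06 for ENSRNOT00000005851. It was 4.9e-06 for ENSRNOT00000028315 and 0.0070 for ENSRNOT00000041241. The filter at 10 CPM left 26 calls under 1 TPM and 1519 between 1 and 10 TPM, since it removed most such transcripts from the test. Falls over 2-fold numbered 1194 on log2(TPM + 1), a scale whose pseudocount shrinks changes at low levels and on which the median of all transcripts lay 0.12 higher. Restricted to transcripts of at least 1000 bases, a choice made after seeing the data, the class of 1000 TPM or more had 23 calls, since most of its transcripts are shorter. With a replicate block, 9402 transcripts were called at 24 h and 3989 differed between the times. Same-numbered libraries of the 24 h groups did not deviate together (r = -0.03, -0.15 and -0.27 across 14239 transcripts), so the numbers were not taken as pairs. Among transcripts under 1 TPM, the median SE of 0.79 limits which changes can be called.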

Other observations

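Calls also varied with transcript length. Of 657 tested transcripts under 500 bases, 124 rose and 126 fell (38.1% called), and of 2235 with 4000 bases or more, 614 rose and 824 fell (64.3% called). In the 3 classes between 500 and 4000 bases, rises were 51.6% to 54.4% of the calls, against 42.7% in the longest class, where the median log2 change of all transcripts was -0.12. With fragment length as a covariate that median was 0.001 in the longest class and -0.23 in the shortest, against -0.003 there without it. With effective length as an offset it was -0.10 in the longest class and -0.12 in the shortest. Mean fragment length was 253.8 bases with acetaminophen and 278.5 bases in controls, so the covariate partly follows treatment.

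Each acetaminophen library had more transcripts at 1 TPM or above than each control, with 14271 to 14524 against 14018 to 14200. This is the smallest two-sided exact permutation p that 3 against 3 libraries allow, 0.1. The number of transcripts that made up 50% of a library's TPM averaged 467 ± 77.0 with acetaminophen and 380 ± 29.7 in controls (SD, n = 3 each; exact permutation p = 0.2).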
